A study of Mus musculus with 9 samples.

Results

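The genes described here are the solute carrier (Slc) genes of mouse intestine other than the main sugar, peptide and bile acid transporters of absorption. They were taken from a table of gene expression as every protein-coding gene whose symbol begins with Slc and a number and whose level was at least 1 FPKM in at least 3 of 9 libraries. FPKM counts fragments per length of gene and per a size set for each library, so levels of different genes may be compared per length. The genes Slc5a1, Slc2a2, Slc2a5, Slc15a1, Slc10a2, Slc51a, Slc51b, Slc12a2 and Slc7a11 were left out by name. Of 371 protein-coding Slc genes in the table, 225 met the rule, 9 were left out by name and 137 lay below the level, of which 17 had 0 reads in all 9 libraries. The level chose the genes, so their being expressed is not a result. At the edge of the rule, the third highest level was 1.03 FPKM for both Slc23a3 and Slc8a2, just inside, and 0.994 FPKM for Slc18a3 and 0.972 FPKM for Slc22a3, just outside. All 225 were also among the 15391 genes that entered the tests. Of the 225, 194 were at 1 FPKM or more in all 9 libraries and 31 in fewer. For 0 genes did the 3 libraries of a single group alone meet the rule. Some genes, Slc23a3 and Slc8a2 among them, met it in irradiated libraries alone.

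The study compared 3 groups of 3 libraries of mouse intestine. IR+LYC mice were gavaged with lycopene in corn oil, at 10 mg/kg per day for 10 days, and had 12 Gy to the whole abdomen on day 4. IR mice had corn oil and the same irradiation, and control mice had corn oil and no irradiation; corn oil by gavage was thus common to all 3 groups. Strain, sex and gut segment are not stated in the labels, and mice given lycopene alone were not analysed here. Whether each library came from its own mouse is not stated either, so p-values measure the spread between these samples, which may be technical. Reads per library, recovered from the deposited values, numbered 17803889 to 22414949. The deposited FPKM were not scaled by these reads alone. The library size they imply was 0.854 times the reads in IR+LYC 2 and 1.26 times in IR+LYC 1. Compared with scaling by reads, this lowers levels in IR+LYC 1, IR 2 and IR+LYC 3. It raises them in the other libraries, most in IR+LYC 2.

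Solute carriers move nutrients, ions, vitamins and metabolites across membranes, either down their gradients or coupled to sodium or protons. In the intestine, absorptive enterocytes place sodium- and proton-coupled carriers on the brush border and exchangers and facilitators on the basolateral side. The same name also covers carriers of the inner mitochondrial membrane (Slc25), which serve energy metabolism in every cell, and carriers of nucleotide sugars in the Golgi (Slc35), which supply glycosylation.

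Start regions of 4 of these genes are shown as examples of epithelial carriers whose level ranged 10-fold or more over the libraries. Slc3a1 ranged 13.2-fold, and genes with wider ranges, such as Slc6a19 at 61.1-fold, are not shown. The 4 thus do not stand for all such genes. Each is 300 bases from the RefSeq annotation of mouse build GRCm38.p6, 250 before an annotated start of the gene to 50 after it, written 5′ to 3′ on the strand of the gene. Capitals mark matches, on either strand, to 4 motifs of intestinal transcription factors. These were GTTAAT, part of the HNF1 site, CAAAGTC for HNF4, AGATAAG for GATA factors and TTTATGG for CDX factors. Slc5a4a (chr10:76147201-76147500 (plus strand)) and its neighbour Slc5a4b (chr10:76110969-76111268 (minus strand)) encode sodium/glucose cotransporter proteins of the SGLT3 type. Slc28a2 (chr2:122426185-122426484 (plus strand)) encodes the sodium-coupled purine nucleoside carrier. Slc3a1 (chr17:85028097-85028396 (plus strand)) encodes the heavy subunit of the cystine and dibasic amino acid exchanger.
Slc5a4a: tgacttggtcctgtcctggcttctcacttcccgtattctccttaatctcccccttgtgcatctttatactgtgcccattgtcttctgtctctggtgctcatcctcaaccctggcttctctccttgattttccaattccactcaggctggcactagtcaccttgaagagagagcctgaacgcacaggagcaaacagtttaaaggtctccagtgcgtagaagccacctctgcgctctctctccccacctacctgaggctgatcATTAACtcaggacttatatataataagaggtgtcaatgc
Slc5a4b: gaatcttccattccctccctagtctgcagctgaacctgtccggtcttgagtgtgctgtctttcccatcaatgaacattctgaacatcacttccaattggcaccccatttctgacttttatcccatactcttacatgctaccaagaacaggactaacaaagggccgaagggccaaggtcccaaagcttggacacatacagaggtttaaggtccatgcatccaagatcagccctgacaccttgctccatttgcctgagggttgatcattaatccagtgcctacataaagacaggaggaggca
Slc28a2: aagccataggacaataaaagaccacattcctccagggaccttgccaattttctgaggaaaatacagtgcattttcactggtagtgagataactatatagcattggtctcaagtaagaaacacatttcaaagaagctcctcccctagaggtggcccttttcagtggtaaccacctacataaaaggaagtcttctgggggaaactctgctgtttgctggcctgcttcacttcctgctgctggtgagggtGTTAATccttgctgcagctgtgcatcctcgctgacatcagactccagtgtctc
Slc3a1: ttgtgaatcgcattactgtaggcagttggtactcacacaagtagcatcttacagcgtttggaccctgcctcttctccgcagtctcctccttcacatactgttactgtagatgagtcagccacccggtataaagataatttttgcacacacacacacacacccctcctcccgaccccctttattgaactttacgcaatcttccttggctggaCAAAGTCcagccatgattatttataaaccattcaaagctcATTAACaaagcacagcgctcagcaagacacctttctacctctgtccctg

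GTTAAT was present, on the plus or the minus strand, once in the windows of Slc5a4a, Slc28a2 and Slc3a1, and CAAAGTC once in that of Slc3a1. The window of Slc5a4b held none of the 4 strings. Windows, some genes having several, were matched for 170 of the 225 genes. GTTAAT was in 7.10% of all 32851 windows of the annotation and in those of 5 of the 22 matched genes whose level ranged 10-fold or more over the libraries, which were Slc16a10, Slc28a2, Slc3a1, Slc5a4a and Slc7a15. It was in 1 of 62 matched genes with a range under 2-fold, and in 13 of all 170 matched Slc genes, which was 5.86% of their windows. CAAAGTC was in 4.44% of all windows, AGATAAG in 3.04% and TTTATGG in 2.75%. Among the 22 genes these were found in 1 (Slc3a1), 0 and 1 (Slc7a15), and among the 62 genes in 5, 2 and 1. The genes were grouped by their range in these libraries, so these shares are a description, and a match is not a shown binding site.

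Carriers of epithelial absorption had the widest ranges between libraries, and libraries of a single group lay far apart. The highest level was at least 10 times the lowest in 28 of the 225 genes (12.4%), against 1243 of 15391 genes tested (8.08%). It was under 2 times the lowest in 81 genes (36%), against 52.3% of all genes. By substrate, the median of this ratio was 5.53 for carriers of monocarboxylates, dicarboxylates and citrate, 4.33 for vitamins, 3.78 for sugars and polyols, 3.62 for organic ions and 3.23 for amino acids. It was 2.13 for transition metals and haem and 2.01 for mitochondrial carriers, near the 1.95 of all genes tested.

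**Figure D1:**
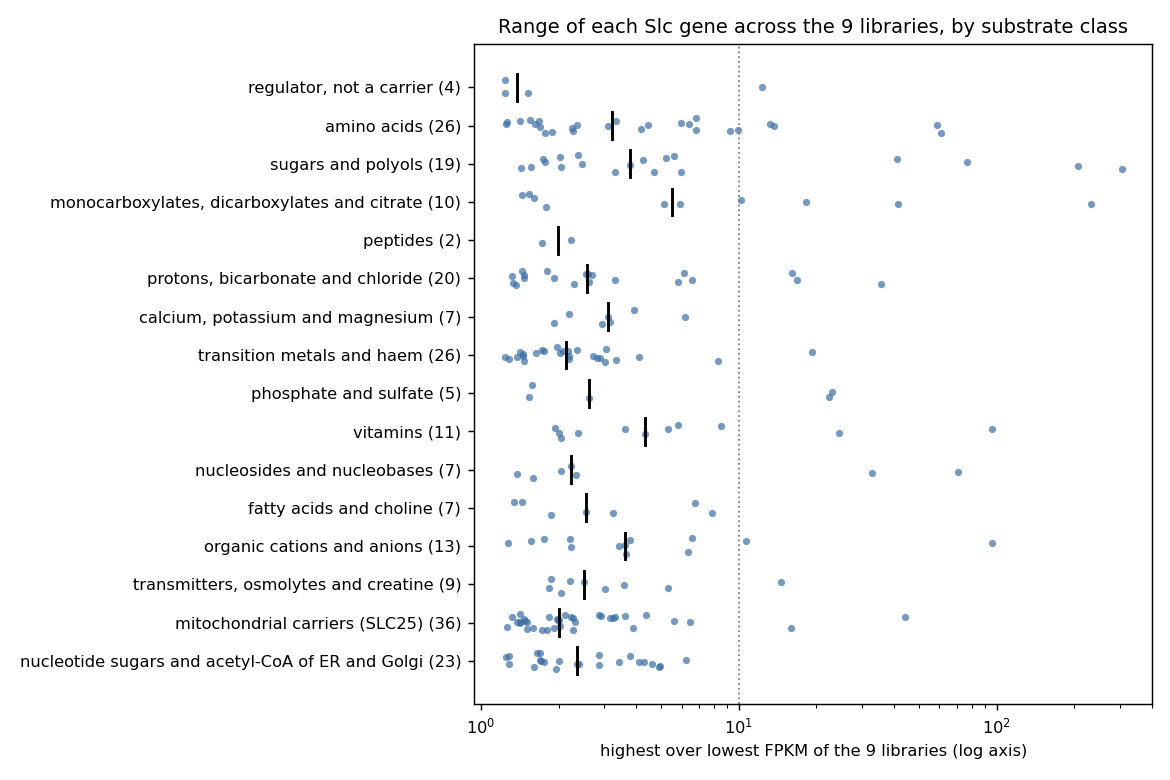
Highest over lowest FPKM of each of the 225 Slc genes over 9 libraries (horizontal, log axis) by substrate class (rows), each point being 1 gene and the bar the class median. Class medians run from 1.38 for the regulators that are not carriers to 5.53 for monocarboxylates, dicarboxylates and citrate.

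The 28 genes with the widest range were low in 1 IR library and 2 IR+LYC libraries above all. Every IR library was below every control in 19 of the 28, against 32.6% of the 1243 genes of any kind with such a range and 14% of all genes tested. IR+LYC 1 was the lowest library for 26 of the 28 and IR+LYC 2 the highest for 15. IR+LYC 1 and IR+LYC 3 both lay below every control in 27 of them (against 50.4% of the 1243 genes), while IR+LYC 2 lay at or above the lowest control in 23, or 82.1%, near the 76.8% of those genes. IR 2 was below IR 1 and IR 3 in 28 of 28, against 50.3% of those genes. Levels low in IR+LYC 1, IR+LYC 3 and IR 2 and high in IR+LYC 2 and the controls are called the absorptive order. Its low libraries are also those whose levels the deposited scaling lowers. Over all 225 Slc genes IR+LYC 1 was the lowest library for 106 (47.1%) and IR+LYC 2 the highest for 86 (38.2%). Over all genes tested these shares were 26.4% and 20.6%.

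**Figure D2:**
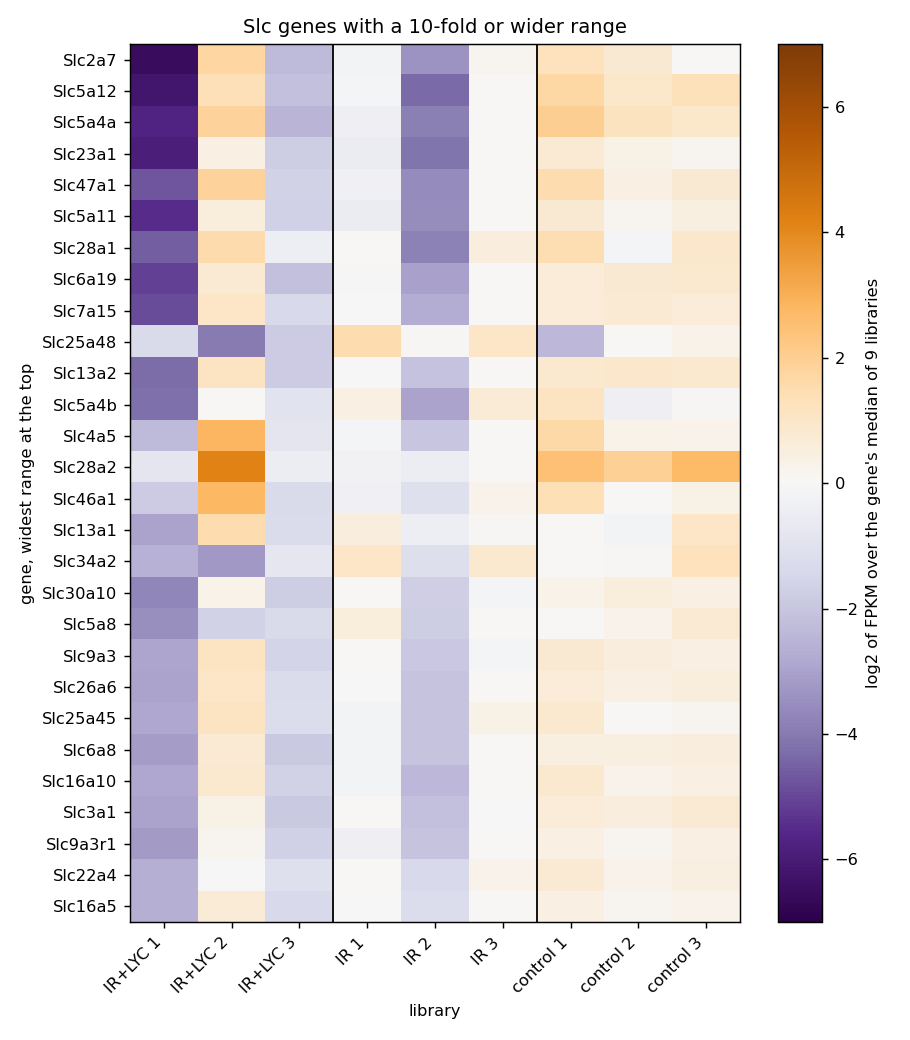
Level of the 28 Slc genes with a range of 10-fold or more (rows, widest at the top) in the 9 libraries (columns), as log2 of FPKM over the median of that gene. Purple is below and orange above the median; IR+LYC 1, IR+LYC 3 and IR 2 are mostly purple, and IR+LYC 2 and the 3 controls mostly orange.

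**Figure D3:**
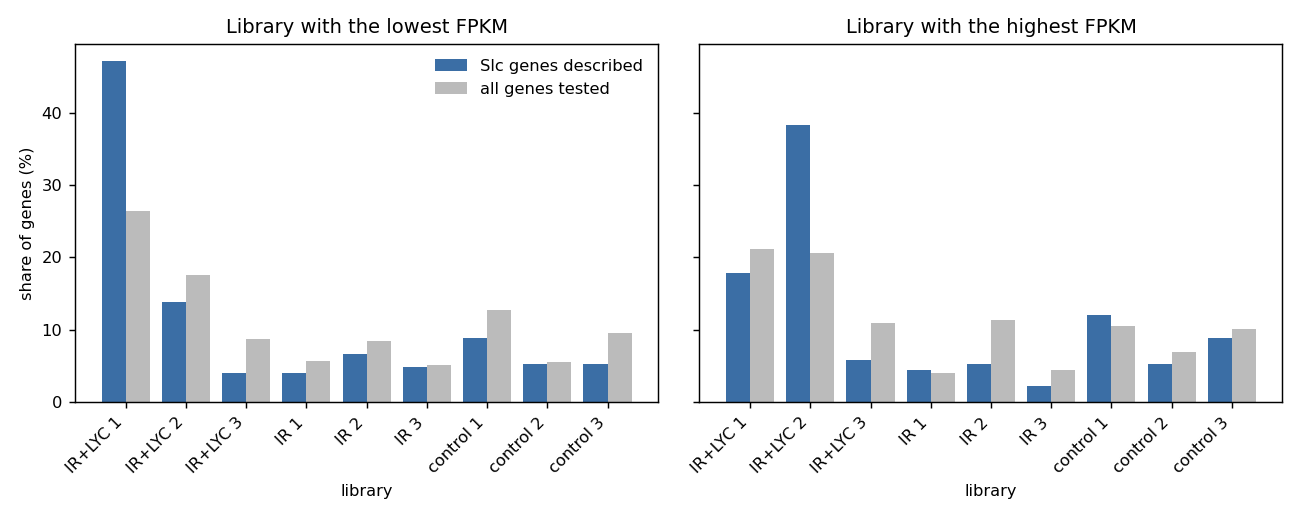
Percent of genes (vertical, from 0) for which each of the 9 libraries (horizontal) had the lowest FPKM and the highest FPKM, for the 225 Slc genes and for all genes tested. IR+LYC 1 was lowest for 47.1% of the Slc genes and IR+LYC 2 highest for 38.2%.

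Markers of other cells moved between these libraries as well. A marker is counted here as at 1 FPKM or more where it reached that level in at least 3 of the 9 libraries. The summed level of 15 brush border enterocyte markers, all 15 of them at 1 FPKM or more, was 1147, 12764 and 4539.5 FPKM in IR+LYC, 13386, 3028 and 15249 FPKM in IR and 17442, 15524 and 16936 FPKM in control. It was lowest in IR+LYC 1, IR 2 and IR+LYC 3, the same libraries that were low for the wide-ranging carriers. In tissue RNA, fewer enterocytes and less RNA per enterocyte cannot be told apart. The sum of 10 smooth muscle markers was 2274, 462 and 1469 FPKM in IR+LYC, 1433, 1288 and 1087 FPKM in IR and 482, 546 and 618 FPKM in control, highest in IR+LYC 1 and IR+LYC 3 and lowest in IR+LYC 2, while IR 2 lay between IR 1 and IR 3. Sums of 10 T and intraepithelial lymphocyte markers ran 37.8 to 253 FPKM in IR+LYC, 85.5 to 175 FPKM in IR and 387 to 608 FPKM in control. Those of 9 B and plasma cell markers ran 545 to 2651 FPKM in IR+LYC, 398 to 1161 FPKM in IR and 3744 to 5555 FPKM in control. Those of 10 macrophage and granulocyte markers ran 311 to 789 FPKM in IR+LYC, 488 to 903 FPKM in IR and 317 to 403 FPKM in control. Every marker of the 3 lists was at 1 FPKM or more in at least 3 libraries, but not in all. S100a9, for example, was at 0 FPKM in control 1 and IR+LYC 2. Sums of 7 endothelial markers, all 7 at 1 FPKM or more, ran 33.04 to 59.3 FPKM in IR+LYC, 36.5 to 40.7 FPKM in IR and 41.2 to 43.8 FPKM in control, and those of 10 neuron and glia markers, 6 of them at that level, 12.6 to 32.9 FPKM in IR+LYC, 15.2 to 21.1 FPKM in IR and 17.03 to 20.2 FPKM in control. Pancreatic acinar markers (1 of 9 at 1 FPKM or more, Amy2a5 and Cel at 0) summed to 4.08 to 8.94 FPKM in IR+LYC, 5.804 to 6.61 FPKM in IR and 3.04 to 4.63 FPKM in control, stomach markers (0 of 5, Tff1 at 0) to 0.0349 to 0.377 FPKM in IR+LYC, 0.0435 to 0.315 FPKM in IR and 0.0303 to 0.0756 FPKM in control and liver markers (3 of 5) to 15.7 to 41.5 FPKM in IR+LYC, 10.5 to 29.04 FPKM in IR and 12.1 to 15.5 FPKM in control. Markers of gut segment, 8 of 11 of them at 1 FPKM or more, differed between libraries too. Fabp6, the ileal bile acid binding protein, was at 93.9, 0.274 and 419 FPKM in IR+LYC, 305, 1561 and 119 FPKM in IR and 0.593, 89.9 and 253 FPKM in control, and Onecut2, a factor of the duodenum, at 0.1004, 5.61 and 0.0399 FPKM in IR+LYC, 0.0798, 0.0631 and 0.253 FPKM in IR and 1.16, 0.136 and 0.0877 FPKM in control. IR+LYC 2 and control 1 were thus the libraries with the highest Onecut2 and the lowest Fabp6, and colon markers Hoxb13 and Car1 were at or near 0 in all 9. Slc10a2, the ileal bile acid carrier and a marker of the list, was at 1.96, 1.31 and 1.37 FPKM in IR+LYC. It was at 13.9, 11.2 and 5.14 FPKM in IR and 2.52, 20.3 and 21.7 FPKM in control. It was thus low in all IR+LYC libraries and control 1, unlike Fabp6, which was high in IR+LYC 3. The part of these cell types and of gut segment in the results below was not tested.

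No Slc gene passed the test over all genes in any of the 3 comparisons. With limma on log2(FPKM + 1), 0 of the 225 genes had an adjusted p under 0.05 in IR against control, where 0.0195% of all genes tested did. The count was 0 in IR+LYC against IR, where 0% of all genes did, and 0 in IR+LYC against control, where 0.0195% did. Below an unadjusted p of 0.05 lay 11 Slc genes in IR against control (7 higher, 4 lower), where 8.34% of all genes did. In IR+LYC against IR 12 did (5 higher, 7 lower; 4.26% of all genes), and in IR+LYC against control 34 did (11 higher, 23 lower; 14.1% of all genes). limma-voom on recovered reads passed 0 Slc genes in each comparison. At an unadjusted p under 0.05 it had 13 in IR against control (11 higher, 2 lower). In IR+LYC against IR it had 11 (2 higher, 9 lower), and in IR+LYC against control 41 (18 higher, 23 lower). Of the 16806 genes in that fit, 1092, 532 and 2131 lay there. The smallest adjusted p of an Slc gene was 0.347 in IR against control, 0.994 in IR+LYC against IR and 0.230 in IR+LYC against control.

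Leaving out 1 library changed this. Without IR+LYC 2, IR against control passed 0.637% of all genes (0.149% higher, 0.487% lower) and 2 Slc genes, both lower, and IR+LYC against control passed 26.8% of all genes and 99 Slc genes. Of these 99, 22 were higher and 77 lower, where 11.2% of all genes were higher and 15.5% lower. IR+LYC against IR still passed 0 of either. IR+LYC then has 2 libraries, and leaving out any other library gave 0 Slc genes in each comparison. IR+LYC 2 was the IR+LYC library most like the controls. Its rank correlation with them was 0.958 to 0.973, against 0.878 to 0.945 for IR+LYC 1 and IR+LYC 3. Genes said to fall or rise without it therefore describe the libraries left and are no evidence for the whole group. The gene values below are given library by library, in the order 1, 2 and 3, and results without IR+LYC 2 are named as such. Log2 differences are on the log2(FPKM + 1) scale with their standard error (SE), and the range beside an adjusted p covers 17 refits with another setting or without 1 library.

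Slc genes whose irradiated and control libraries did not overlap were more often lower than higher after irradiation. In IR against control 57 of the 225 (25.3%) were lower in every IR library than in every control, against 14% of all genes tested, and 25 (11.1%) were higher in every one, against 14.1%. On reads scaled by limma-voom 3 of the 57, Slc38a10, Slc4a2 and Slc9a8, had a difference above 0. The median log2 difference was -0.14 over the 225 and -0.01 over all genes tested. Without IR 2 it was -0.05, and on the reads scaled by limma-voom 0.05, where the median of all genes lay at 0.19. In IR+LYC against control 21 were lower without overlap (9.33%, against 8.64% of all genes) and 11 higher (4.89%, against 8.87%). In IR+LYC against IR 2 were lower (0.889%, against 3.2%) and 9 higher (4%, against 4.25%). Among the 28 wide-ranging genes the log2 difference of IR against control was below 0 in 27 and, without IR 2, in 24. That of IR+LYC against IR was below 0 in 23, but without IR+LYC 1 in 6, so its direction rests on that library.

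Amino acid carriers of the enterocyte were low in IR+LYC 1, IR+LYC 3 and IR 2 and high in the controls and IR+LYC 2. The class has 26 genes, of which 10 were lower without overlap in IR than in control and 4 higher, with a median log2 difference of -0.14. Over all genes tested 14% were lower and 14.1% higher without overlap. Slc6a19 (ENSMUSG00000021565, chromosome 13, 73679745 to 73704865, minus strand), the main sodium-coupled neutral amino acid carrier of the brush border and the highest of the class, was at 3.48, 198 and 26.3 FPKM in the IR+LYC libraries, 113, 14.4 and 118 FPKM in the IR libraries and 183, 201 and 212 FPKM in the controls. Every IR library was below every control, and the range of the IR+LYC libraries held the IR values and part of the control values. Over all 9 libraries the range was 61.1-fold, from IR+LYC 1 to control 3. Its group means were 75.9 ± 106 FPKM in IR+LYC, 81.98 ± 58.6 FPKM in IR and 199 ± 15.01 FPKM in control (SD, n = 3 each). Its log2 difference was -1.75 ± 1.30 (SE, limma adjusted p = 0.667, with 0.2999 to 0.9997 over the alternatives) in IR against control. It fell in IR+LYC against control only when IR+LYC 2, which lay within the control values, was left out, with a log2 difference of -4.17 (adjusted p = 0.0307).

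Slc3a1 (chromosome 17, 85028347 to 85064243, plus strand) and Slc7a9, the heavy and light subunits of the brush border exchanger of cystine and dibasic amino acids, lay in the same order. Slc3a1 was at 10.7, 108 and 23.1 FPKM in IR+LYC, 84.2, 18.8 and 81.6 FPKM in IR and 129, 119.8 and 141 FPKM in control. All 6 irradiated libraries were below every control, with a log2 difference of -1.34 ± 0.83 (SE, limma adjusted p = 0.648, with 0.277 to 0.9997 over the alternatives) in IR. Slc7a9 was at 11.7, 91.7 and 35.1 FPKM in IR+LYC, 77.98, 32.5 and 80.3 FPKM in IR and 89.3, 99.9 and 108 FPKM in control. Its basolateral counterpart pairs Slc7a7 with the heavy chain Slc3a2. Slc7a7 was at 15.8, 94.2 and 28.9 FPKM in IR+LYC, 64.3, 25.3 and 66.3 FPKM in IR and 87.9, 84.4 and 88.02 FPKM in control, and Slc3a2, which serves several light chains in most cells, at 31.2, 128 and 45.01 FPKM in IR+LYC, 77.05, 34.4 and 87.8 FPKM in IR and 131, 99.3 and 97.3 FPKM in control. For both, IR and control did not overlap, and IR+LYC 2 lay above every IR library. Slc7a8, a basolateral exchanger of neutral amino acids, was at 15.4, 98.4 and 27.2 FPKM in IR+LYC, 48.4, 16.7 and 64.9 FPKM in IR and 98.8, 58.5 and 60.6 FPKM in control, where IR 3 reached into the control range. Slc6a20a, the proline carrier, was at 5.02, 34.3 and 16.2 FPKM in IR+LYC, 27.2, 10.1 and 33.1 FPKM in IR and 30.6, 20.5 and 29.1 FPKM in control and overlapped likewise. Slc3a1, Slc7a9, Slc7a7 and Slc3a2 were among 9 genes of the class that fell in IR+LYC against control without IR+LYC 2 (adjusted p = 0.0257, 0.0281, 0.02602 and 0.0339), while 3 rose. Of all genes tested, 15.5% fell and 11.2% rose in that fit.

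The other 5 amino acid carriers named by the rule did not share this order. Slc1a5, the glutamine carrier, was at 32.8, 19.7 and 30.3 FPKM in IR+LYC, 23.5, 26.2 and 17.4 FPKM in IR and 17.6, 25.2 and 20.1 FPKM in control, a 1.89-fold range in which all 3 groups overlapped. Slc7a5, the large neutral amino acid carrier, was at 8.68, 7.56 and 9.31 FPKM in IR+LYC, 5.95, 9.07 and 5.28 FPKM in IR and 5.67, 8.03 and 5.73 FPKM in control, also with overlap. Slc7a1, the cationic amino acid carrier, was at 8.73, 9.04 and 8.01 FPKM in IR+LYC, 7.08, 7.65 and 7.27 FPKM in IR and 6.68, 6.79 and 6.41 FPKM in control, so that the 3 groups did not overlap and IR+LYC was highest. Its log2 difference was small, 0.33 ± 0.08 (SE, limma adjusted p = 0.277, with 0.0391 to 0.6202 over the alternatives) in IR+LYC against control, and without IR+LYC 2 the adjusted p was 0.0391. Slc1a1, an epithelial and neuronal carrier of glutamate and aspartate, was at 3.85, 3.38 and 4.71 FPKM in IR+LYC, 6.88, 3.87 and 4.69 FPKM in IR and 5.33, 7.64 and 7.63 FPKM in control, with every IR+LYC library below every control. Slc6a9, the glycine carrier, was at 2.66, 2.54 and 3.295 FPKM in IR+LYC, 4.6002, 3.37 and 4.31 FPKM in IR and 1.96, 2.44 and 2.89 FPKM in control. All IR libraries were above all control and all IR+LYC libraries, by 0.57 ± 0.14 (SE, limma adjusted p = 0.3602, with 0.135 to 0.734 over the alternatives) log2 against control. IR+LYC differed from IR by -0.41 ± 0.14 (SE, limma adjusted p = 0.994, with 0.246 to 1 over the alternatives) log2.

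Sugar and polyol carriers held both the widest ranges and some of the genes that were higher after irradiation. Of 19 genes, 3 were lower and 4 higher in IR than in control without overlap, where 14% and 14.1% of all genes tested were. Slc5a4a (chromosome 10, 76147451 to 76189265, plus strand) was at 0.327, 60.3 and 3.02 FPKM in IR+LYC, 13.2, 1.19 and 17.1 FPKM in IR and 67.6, 38.5 and 32.6 FPKM in control, a 207-fold range. IR was below control in every library, with a log2 difference of -2.45 ± 1.35 (SE, limma adjusted p = 0.633, with 0.213 to 0.9997 over the alternatives), and without IR+LYC 2 IR+LYC fell against control (adjusted p = 0.0258). Slc5a4b was at 2.02, 37.9 and 19.4 FPKM in IR+LYC, 50.03, 4.86 and 59.7 FPKM in IR and 83.4, 29.4 and 40.7 FPKM in control. Here IR 1 and IR 3 lay within the control values and IR 2, IR+LYC 1 and IR+LYC 3 below them. The pair lie side by side on chromosome 10 and are alike in sequence, so reads may have been split between them and their separate levels are uncertain.

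Slc2a1, the glucose facilitator of many dividing and barrier cells, was at 7.09, 4.64 and 6.52 FPKM in IR+LYC, 5.06, 9.44 and 5.09 FPKM in IR and 2.85, 4.83 and 3.79 FPKM in control. All IR libraries were above all controls, with a log2 difference of 0.61 ± 0.26 (SE, limma adjusted p = 0.581, with 0.254 to 0.9997 over the alternatives), and IR+LYC 2 lay within the control range. Slc50a1, a sugar facilitator of internal membranes, was at 20.9, 14.7 and 15.8 FPKM in IR+LYC, 13.9, 14.4 and 12.99 FPKM in IR and 12.1, 16.3 and 13.03 FPKM in control, and IR+LYC was above IR in every library. Slc2a3, a neuronal and leukocyte glucose carrier, was at 0.972, 0.679 and 1.03 FPKM in IR+LYC, 1.004, 1.12 and 0.783 FPKM in IR and 1.24, 1.39 and 1.03 FPKM in control, with IR+LYC below control in every library, though IR+LYC 3 and control 3 were nearly level. Outside the rule for naming genes and chosen after their values were seen, Slc2a7 and Slc2a4 stand at the ends of the class. Slc2a7, a sugar facilitator of the intestine, was at 0.0947, 28.9 and 1.77 FPKM in IR+LYC, 7.52, 0.857 and 9.85 FPKM in IR and 20.6, 15.1 and 8.74 FPKM in control (305-fold, the widest range of all 225 genes). Slc2a4, the insulin-responsive glucose carrier of muscle and fat, was at 11.6, 2.72 and 5.44 FPKM in IR+LYC, 6.95, 7.36 and 4.02 FPKM in IR and 2.73, 2.98 and 3.41 FPKM in control, highest in IR+LYC 1, where the smooth muscle sum was highest too. In IR+LYC 3, where that sum was above every IR library, Slc2a4 lay below IR 1 and IR 2. Slc2a7 fell and Slc2a4 rose in IR+LYC against control without IR+LYC 2 (adjusted p = 0.0322 and 0.0365).

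Carriers of short organic acids were among the most variable. In this class of 10 genes, 3 were lower and 0 higher in IR than in control without overlap, where 14% and 14.1% of all genes tested were. Slc5a12, a sodium-coupled lactate carrier, was at 0.418, 77.9 and 6.67 FPKM in IR+LYC, 27.04, 1.48 and 30.3 FPKM in IR and 97.01, 59.3 and 73.5 FPKM in control. IR was below control in each library, and the log2 difference was -2.55 ± 1.45 (SE, limma adjusted p = 0.637, with 0.262 to 0.9997 over the alternatives) in IR against control. Slc13a2, the brush border carrier of citrate and succinate, was at 4.08, 169 and 22.3 FPKM in IR+LYC, 79.1, 18.5 and 79.3 FPKM in IR and 142, 147 and 143 FPKM in control. The controls were close together, IR 1 and IR 3 were nearly level below them, and IR+LYC 1 and IR+LYC 2 were 41.6-fold apart. Both fell in IR+LYC against control without IR+LYC 2 (adjusted p = 0.0328 and 0.0249). Slc16a1, the proton-coupled lactate and butyrate carrier of many cell types, was at 24.7, 29.5 and 22.96 FPKM in IR+LYC, 23.6, 23.9 and 24.6 FPKM in IR and 25.98, 22.2 and 20.5 FPKM in control, without a gap between groups. Slc16a13, a monocarboxylate carrier of the same family, was at 3.37, 4.01 and 3.21 FPKM in IR+LYC, 2.82, 2.67 and 2.83 FPKM in IR and 2.84, 2.499 and 2.92 FPKM in control. Every IR+LYC library was above every other one, by 0.26 ± 0.10 (SE, limma adjusted p = 0.994, with 0.254 to 1 over the alternatives) log2 against IR.

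Slc5a8 and Slc34a2 were below every control in all 3 IR+LYC libraries. Slc5a8, a sodium-coupled carrier of short-chain fatty acids, was at 1.75, 6.38 and 7.62 FPKM in IR+LYC, 29.1, 5.702 and 19.9 FPKM in IR and 19.4, 22.9 and 31.9 FPKM in control. All IR+LYC libraries were below all controls, IR 2 was as low as IR+LYC, and the log2 difference was -2.17 ± 0.60 (SE, limma adjusted p = 0.306, with 0.04297 to 0.647 over the alternatives) against control. Against IR it was -1.53 ± 0.60 (SE, limma adjusted p = 0.994, with 0.221 to 1 over the alternatives). Slc34a2 (chromosome 5, 53038081 to 53071664, plus strand), the sodium-phosphate cotransporter of the brush border, was at 5.98, 3.73 and 20.4 FPKM in IR+LYC, 71.3, 16.7 and 63.5 FPKM in IR and 35.8, 38.2 and 83.1 FPKM in control. IR+LYC 2, the library with the highest levels of most absorptive carriers, had the lowest of this one, and IR 2 lay below IR+LYC 3. The log2 difference was -2.47 ± 0.70 (SE, limma adjusted p = 0.307, with 0.0744 to 0.657 over the alternatives) in IR+LYC against control. Set against IR it was -2.29 ± 0.70 (SE, limma adjusted p = 0.994, with 0.222 to 1 over the alternatives). Without IR+LYC 2, Slc5a8 fell in IR+LYC against control (adjusted p = 0.04297) and Slc34a2 had an adjusted p of 0.0744. Of the ileal genes given above, Fabp6 was also lowest in IR+LYC 2 but high in IR+LYC 3. Slc10a2 was low in all IR+LYC libraries. The part of gut position was not tested. The other phosphate carrier on the list, Slc20a1, which serves most cells, was at 2.87, 4.23 and 2.83 FPKM in IR+LYC, 3.13, 3.93 and 3.92 FPKM in IR and 4.12, 4.45 and 3.35 FPKM in control.

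**Figure D4:**
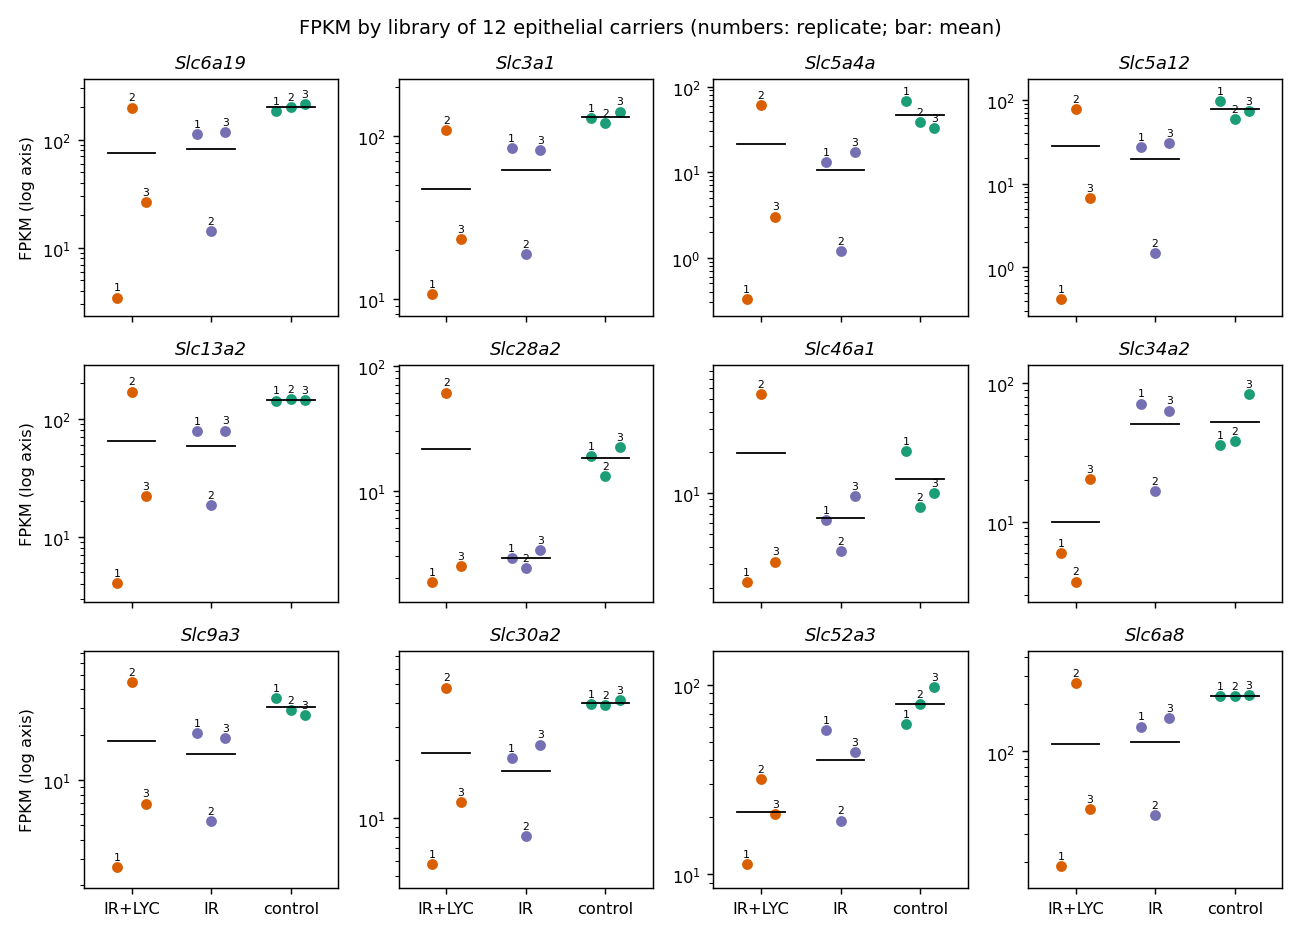
FPKM (log axis) of 12 carriers of the absorptive epithelium in IR+LYC, IR and control, each numbered point being a library and each bar the group mean (n = 3). In most panels IR+LYC 2 lies with or above the controls and IR+LYC 1 is lowest; Slc34a2 is lowest in IR+LYC 2, and Slc28a2 is low in all 3 IR libraries.

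Exchangers of the brush border for sodium, bicarbonate and chloride were low in IR+LYC 1 and high in IR+LYC 2. IR+LYC 1 was the lowest library for 12 of the 20 genes of the class, and 8 had a range under 2-fold. Of the 20, 10 were lower in IR than in control without overlap and 0 higher, where 14% and 14.1% of all genes tested were. Without IR+LYC 2, 7 fell and 2 rose in IR+LYC against control, where 15.5% and 11.2% of all genes did. Slc9a3, the sodium/proton exchanger of the brush border that carries most sodium absorption, was at 2.66, 44.7 and 6.98 FPKM in IR+LYC, 20.5, 5.37 and 18.9 FPKM in IR and 35.1, 29.3 and 26.9 FPKM in control. Slc26a6, an apical anion exchanger, was at 4.52, 72.7 and 14.8 FPKM in IR+LYC, 35.2, 8.52 and 35.5 FPKM in IR and 55.9, 46.6 and 52.01 FPKM in control. In both, IR lay below control in every library, and without IR+LYC 2 both fell (adjusted p = 0.0264 and 0.0342). Slc9a2, a second apical exchanger, was at 5.02, 30.7 and 8.22 FPKM in IR+LYC, 18.2, 12.9 and 23.1 FPKM in IR and 25.04, 20.2 and 25.8 FPKM in control, and Slc26a3, the chloride/bicarbonate exchanger whose loss causes chloride diarrhoea in people, at 5.94, 34.4 and 10.6 FPKM in IR+LYC, 19.2, 9.54 and 17.7 FPKM in IR and 22.9, 17.3 and 19.1 FPKM in control. For the pair IR and control overlapped, and without IR+LYC 2 both fell in IR+LYC (adjusted p = 0.0199 and 0.0364).

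On the basolateral side, Slc4a4, the sodium bicarbonate cotransporter, was at 6.26, 13.6 and 8.38 FPKM in IR+LYC, 16.5, 7.27 and 15.1 FPKM in IR and 16.8, 14.1 and 15.5 FPKM in control, with every IR+LYC library below every control. Slc12a7, a potassium/chloride cotransporter, was at 7.63, 19.96 and 9.27 FPKM in IR+LYC, 13.1, 7.67 and 13.1 FPKM in IR and 18.9, 15.7 and 17.3 FPKM in control, and without IR+LYC 2 it fell in IR+LYC against control (adjusted p = 0.02902). Slc12a9, of the same family, was at 3.64, 3.37 and 3.51 FPKM in IR+LYC, 2.52, 2.74 and 3.03 FPKM in IR and 2.899, 2.64 and 2.47 FPKM in control. Here all IR+LYC libraries were above all others, by 0.26 ± 0.09 (SE, limma adjusted p = 0.994, with 0.194 to 1 over the alternatives) log2 against IR, and without IR+LYC 2 it rose against control (adjusted p = 0.0437).

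4 genes with an Slc symbol encode no carrier. Slc9a3r1, the scaffold protein that holds Slc9a3 at the brush border, was at 74.7, 769 and 215 FPKM in IR+LYC, 540.2, 167 and 682 FPKM in IR and 916, 749 and 903 FPKM in control, in the order of the absorptive carriers, and fell in IR+LYC without IR+LYC 2 (adjusted p = 0.0291). Slc9a3r2, its relative, was at 12.4, 10.4 and 13.1 FPKM in IR+LYC, 10.3, 10.9 and 11.2 FPKM in IR and 14.3, 15.7 and 15.2 FPKM in control. The 6 irradiated libraries lay below all controls, over a 1.51-fold range in all, with a log2 difference of -0.44 ± 0.11 (SE, limma adjusted p = 0.347, with 0.0711 to 0.826 over the alternatives) in IR. Slc7a6os, named for its place opposite Slc7a6, was at 6.43, 6.14 and 6.27 FPKM in IR+LYC, 5.88, 5.42 and 5.21 FPKM in IR and 6.17, 5.73 and 6.05 FPKM in control. The use of strand in counting is not stated, so reads of Slc7a6 may be included. Slc4a1ap, an adaptor protein, was at 3.96, 3.77 and 3.28 FPKM in IR+LYC, 3.72, 3.39 and 3.97 FPKM in IR and 4.07, 3.83 and 3.62 FPKM in control. The level of both stayed within 1.24-fold over the 9 libraries.

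Vitamin carriers gave some of the widest gaps between groups. The class of 11 had the lowest median log2 difference of the 16 in IR against control, -0.59. In it 4 genes were lower and 1 higher without overlap, where 14% and 14.1% of all genes tested were. Slc52a3 (chromosome 2, 151996511 to 152009258, plus strand), the apical riboflavin carrier, was at 11.3, 31.8 and 20.7 FPKM in IR+LYC, 57.3, 19.1 and 43.9 FPKM in IR and 61.8, 79.1 and 96.6 FPKM in control. All 6 irradiated libraries were below all controls, IR+LYC 2 included, and the log2 difference was -1.94 ± 0.46 (SE, limma adjusted p = 0.2402, with 0.0242 to 0.6202 over the alternatives) in IR+LYC. In IR it was -1.07 ± 0.46 (SE, limma adjusted p = 0.592, with 0.253 to 0.9997 over the alternatives). Slc5a6, the sodium-coupled carrier of biotin and pantothenate, was at 2.69, 4.36 and 4.31 FPKM in IR+LYC, 9.81, 3.596 and 7.504 FPKM in IR and 8.18, 11.6 and 11.6 FPKM in control. IR+LYC was below control in every library, with a log2 difference of -1.27 ± 0.31 (SE, limma adjusted p = 0.267, with 0.0348 to 0.6202 over the alternatives), while IR 1 lay within the control range. These carriers fell in IR+LYC without IR+LYC 2 (adjusted p = 0.0242 and 0.0348). Slc23a1, the ascorbate carrier of absorptive epithelia, was at 0.393, 30.8 and 6.75 FPKM in IR+LYC, 15.9, 1.29 and 22.8 FPKM in IR and 37.9, 29.7 and 24.9 FPKM in control, a 96.3-fold range.

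The folate carriers differed from each other. Slc46a1, the proton-coupled folate carrier of the upper small intestine, was at 2.22, 54.1 and 3.12 FPKM in IR+LYC, 6.34, 3.72 and 9.55 FPKM in IR and 20.6, 7.92 and 9.99 FPKM in control. IR+LYC 2 had the highest level, above control 1, and these were the libraries with the highest Onecut2; the others lay at 10 FPKM or below. The gene fell in IR+LYC against control without IR+LYC 2 (adjusted p = 0.0295). Slc19a1, the reduced folate carrier of many cell types, was at 7.69, 8.68 and 6.85 FPKM in IR+LYC, 4.61, 4.99 and 4.33 FPKM in IR and 5.61, 5.03 and 4.92 FPKM in control. Every IR+LYC library was above every IR and control library. Its log2 difference was 0.63 ± 0.11 (SE, limma adjusted p = 0.994, with 0.1704 to 1 over the alternatives) in IR+LYC against IR, where no other Slc gene had a smaller p. Against control it was 0.49 ± 0.11 (SE, limma adjusted p = 0.2303, with 0.0287 to 0.611 over the alternatives), and the gene rose there without IR+LYC 2 (adjusted p = 0.0287). Slc23a4, whose rat counterpart carries nucleobases, was at 9.102, 33.2 and 9.09 FPKM in IR+LYC, 6.22, 7.46 and 7.66 FPKM in IR and 14.2, 12.5 and 16.1 FPKM in control. Every IR library was below every control and every IR+LYC library. The log2 difference was -0.91 ± 0.43 (SE, limma adjusted p = 0.6099, with 0.03003 to 0.9997 over the alternatives) in IR against control, and Slc23a4 fell there without IR+LYC 2 (adjusted p = 0.03003). Slc23a3, a gene of the family at the edge of the level rule, was at 1.18, 0.909 and 1.03 FPKM in IR+LYC, 0.821, 1.03 and 0.729997 FPKM in IR and 0.6295, 0.605 and 0.628 FPKM in control. It met the level rule only in IR 2, IR+LYC 1 and IR+LYC 3, so a higher level in irradiated libraries is not a result.

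Slc28a2, the purine nucleoside carrier (ENSMUSG00000027219, chromosome 2, 122426477 to 122461137, plus strand), showed the closest IR libraries of the wide-ranging genes. It was at 1.85, 60.9 and 2.48 FPKM in the IR+LYC libraries, 2.89, 2.41 and 3.37 FPKM in the IR libraries and 18.9, 13.1 and 22.3 FPKM in the controls. IR 1, IR 2 and IR 3 were alike here, although IR 2 was far lower than the other two in the absorptive carriers, and all were several-fold below the lowest control. IR+LYC 1 and IR+LYC 3 lay with IR, and IR+LYC 2 above every control. The log2 difference was -2.28 ± 1.02 (SE, limma adjusted p = 0.601, with 0.0151 to 0.9997 over the alternatives) in IR against control. In the fit of these 2 groups alone it fell (adjusted p = 0.0209), as it did without IR+LYC 2 (adjusted p = 0.0151). In IR+LYC against control without IR+LYC 2 its adjusted p was 0.00789. Slc28a2 and Slc23a4 were the 2 Slc genes that passed in IR against control in each of these fits. In the fit of the 2 groups 0.65% of all genes passed (0.234% higher, 0.416% lower), and Slc23a4 had an adjusted p of 0.0458. Slc28a1, the pyrimidine nucleoside carrier, was at 0.372, 26.3 and 6.697 FPKM in IR+LYC, 8.78, 0.633 and 12.5 FPKM in IR and 24.4, 7.91 and 16.2 FPKM in control, in the order of the absorptive carriers. Slc29a1, an equilibrative nucleoside carrier of most cells, was at 12.2, 5.21 and 10.8 FPKM in IR+LYC, 7.66, 8.43 and 7.32 FPKM in IR and 5.76, 7.16 and 6.08 FPKM in control, highest in IR+LYC 1 and lowest in IR+LYC 2, and rose without IR+LYC 2 (adjusted p = 0.01899).

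Among carriers of metals, intestinal uptake and macrophage genes went different ways. Of 26 genes, 5 were lower and 7 higher in IR than in control without overlap, where 14% and 14.1% of all genes tested were. Slc11a2, the apical iron carrier, was at 4.62, 10.1 and 6.32 FPKM in IR+LYC, 7.68, 5.25 and 6.53 FPKM in IR and 8.44, 8.09 and 7.87 FPKM in control, with IR below control in every library. Slc40a1, the iron exporter ferroportin, was at 2.57, 2.84 and 1.56 FPKM in IR+LYC, 2.88, 3.39 and 2.81 FPKM in IR and 2.204, 1.96 and 1.98 FPKM in control, with IR above control in every library. Slc39a4, the apical zinc importer, was at 21.5, 39.3 and 37.1 FPKM in IR+LYC, 57.2, 31.9 and 52.8 FPKM in IR and 48.9, 45.5 and 60.9 FPKM in control, with IR+LYC below control. Slc39a5, its basolateral relative, was at 33.3, 96.6 and 63.5 FPKM in IR+LYC, 76.9, 42.6 and 82.7 FPKM in IR and 87.7, 79.2 and 80.9 FPKM in control, with overlap. Slc30a10, the manganese exporter, was at 0.242, 3.84 and 0.915 FPKM in IR+LYC, 3.15, 0.952 and 2.88 FPKM in IR and 3.81, 4.64 and 4.15 FPKM in control. Slc30a1, the zinc exporter of the plasma membrane, was at 5.66, 10.6 and 5.66 FPKM in IR+LYC, 7.83, 7.296 and 8.52 FPKM in IR and 11.8, 10.2 and 10.6 FPKM in control, and Slc30a5, a zinc carrier of the secretory pathway, at 10.3, 22.5 and 11.7 FPKM in IR+LYC, 18.4, 14.2 and 16.9 FPKM in IR and 20.9, 18.3 and 18.1 FPKM in control. The last 3 fell in IR+LYC without IR+LYC 2 (adjusted p = 0.0226, 0.0129 and 0.0217). Slc30a2, a zinc carrier of secretory vesicles that is outside the rule for naming genes and was chosen after its values were seen, was at 5.77, 47.9 and 12.1 FPKM in IR+LYC, 20.5, 8.08 and 24.2 FPKM in IR and 39.5, 38.9 and 41.3 FPKM in control. The controls were close together and above every IR library, and the log2 difference of IR was -1.26 ± 0.67 (SE, limma adjusted p = 0.631, with 0.192 to 0.9997 over the alternatives). It fell in IR+LYC without IR+LYC 2 (adjusted p = 0.0254).

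Slc11a1, a metal carrier of macrophage phagosomes, was at 4.03, 2.55 and 4.23 FPKM in IR+LYC, 2.498, 4.73 and 3.68 FPKM in IR and 1.56, 1.97 and 1.87 FPKM in control. All 6 irradiated libraries were above all controls, by 0.70 ± 0.21 (SE, limma adjusted p = 0.319, with 0.0266 to 0.657 over the alternatives) log2 in IR+LYC. In IR the log2 difference was 0.70 ± 0.21 (SE, limma adjusted p = 0.417, with 0.135 to 0.942 over the alternatives). It rose in IR+LYC without IR+LYC 2 (adjusted p = 0.0266). The sum of the 10 macrophage and granulocyte markers was 789, 311 and 682 FPKM in IR+LYC, 488, 903 and 602 FPKM in IR and 317, 403 and 350.3 FPKM in control, highest in IR 2 as Slc11a1 was; its part in the result was not tested. Slc39a8, an importer of zinc and manganese, was at 3.71, 2.58 and 3.902 FPKM in IR+LYC, 3.603, 2.499 and 2.63 FPKM in IR and 2.49, 2.28 and 2.27 FPKM in control, and Slc48a1, a haem carrier of endosomes and lysosomes, at 15.8, 7.78 and 14.9 FPKM in IR+LYC, 10.6, 14.4 and 10.98 FPKM in IR and 9.07, 9.76 and 10.3 FPKM in control. Both rose without IR+LYC 2 (adjusted p = 0.0304 and 0.0277).

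Magnesium and calcium carriers differed among themselves. Slc41a2, a magnesium carrier and the highest of a class of 7, was at 1.77, 10.9 and 2.48 FPKM in IR+LYC, 6.53, 2.22 and 6.79 FPKM in IR and 10.5, 7.43 and 7.51 FPKM in control, in the absorptive order (adjusted p = 0.0294 in IR+LYC against control without IR+LYC 2). Slc41a3, of the same family, was at 1.3003, 1.58 and 2.301 FPKM in IR+LYC, 3.04, 1.63 and 3.298 FPKM in IR and 2.54, 3.41 and 3.82 FPKM in control. IR+LYC was below control throughout, by a log2 difference of -0.65 ± 0.22 (SE, limma adjusted p = 0.327, with 0.104 to 0.695 over the alternatives). Slc8a1, the sodium/calcium exchanger best known from heart and smooth muscle, was at 6.02, 2.13 and 2.2998 FPKM in IR+LYC, 4.004, 3.85 and 3.16 FPKM in IR and 2.44, 1.94 and 2.34 FPKM in control. It was highest in IR+LYC 1, where the smooth muscle sum was highest too. In IR+LYC 3, where that sum was above every IR library, Slc8a1 lay within the control range. Slc8a2, a neuronal exchanger of the family, was near the level rule at 1.43, 0.449 and 1.03 FPKM in IR+LYC, 1.08, 0.769 and 0.881 FPKM in IR and 0.605, 0.477 and 0.811 FPKM in control. It met the level rule only in IR 1, IR+LYC 1 and IR+LYC 3, so a higher level in these libraries is not a result.

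**Figure D5:**
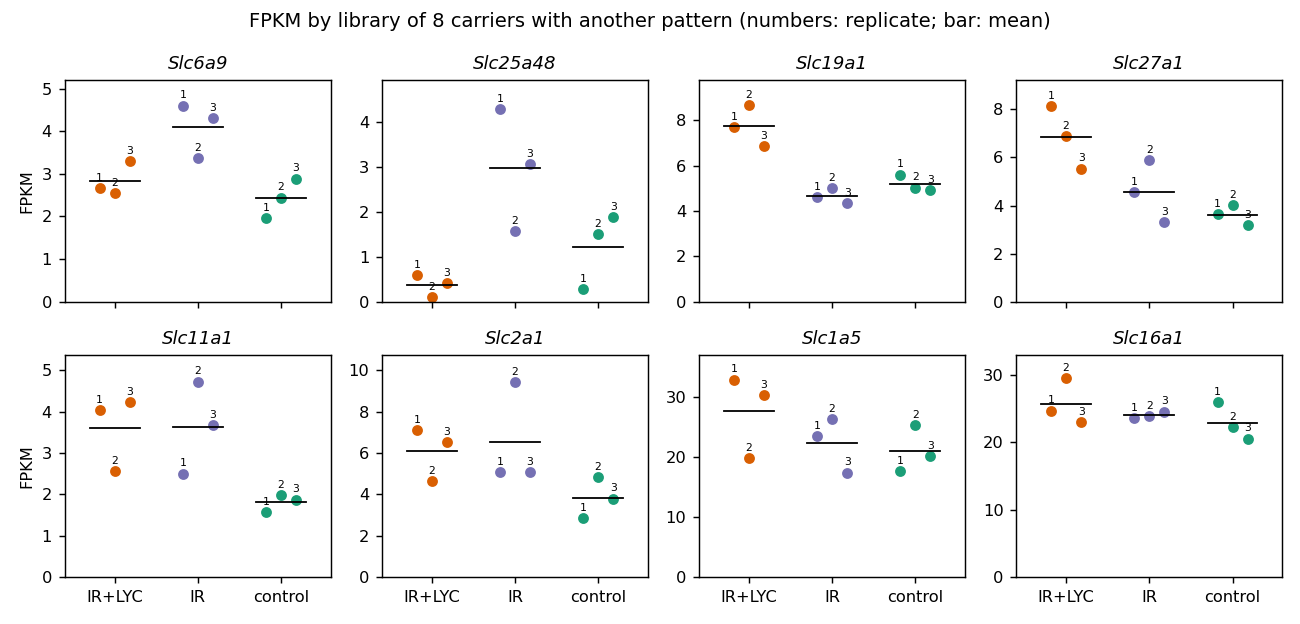
FPKM (linear axis from 0) of 8 carriers that did not follow the absorptive order, in IR+LYC, IR and control, each numbered point being a library and each bar the group mean (n = 3). Slc6a9 is highest in IR, Slc25a48 is lower in every IR+LYC library than in every IR library, Slc19a1 is highest in IR+LYC, Slc11a1 is lowest in control, and Slc16a1 and Slc1a5 overlap in all groups.

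Lipid-related carriers of the brush border and of other tissues also differed. Slc27a4, the fatty acid transport protein of enterocytes, was at 29.96, 233 and 74.7 FPKM in IR+LYC, 169, 63.9 and 220.0 FPKM in IR and 233, 234 and 235 FPKM in control. The controls were nearly level, IR was below them in every library, and without IR+LYC 2 it fell in IR+LYC (adjusted p = 0.0297). Slc27a1, the form best known from muscle and fat, was at 8.14, 6.87 and 5.53 FPKM in IR+LYC, 4.55, 5.88 and 3.31 FPKM in IR and 3.64, 4.02 and 3.18 FPKM in control. IR+LYC was above control in every library, with a log2 difference of 0.76 ± 0.19 (SE, limma adjusted p = 0.269, with 0.0436 to 0.6202 over the alternatives). The gene rose there without IR+LYC 2 (adjusted p = 0.0436). Slc44a1, a choline carrier of most cells, was at 24.7, 28.1 and 25.4 FPKM in IR+LYC, 31.3, 25.1 and 29.2 FPKM in IR and 31.4, 31.2 and 32.99 FPKM in control, with IR+LYC below control over a 1.34-fold range. Slc44a3, of that family, was at 7.198, 7.58 and 6.34 FPKM in IR+LYC, 5.94, 6.14 and 5.93 FPKM in IR and 5.51, 5.45 and 5.24 FPKM in control, with IR+LYC above IR and IR above control (adjusted p = 0.0458 in IR+LYC against control without IR+LYC 2).

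Carriers of organic cations lay in different orders. IR+LYC 1 was the lowest library for 7 of the 13 genes of the class and IR+LYC 2 for 3. Slc47a1, the proton-coupled exporter of organic cations, was at 0.261, 25.1 and 2.28 FPKM in IR+LYC, 5.74, 0.578 and 7.03 FPKM in IR and 20.1, 9.51 and 12.1 FPKM in control. IR was below control in all libraries, with a log2 difference of -1.70 ± 1.06 (SE, limma adjusted p = 0.652, with 0.254 to 0.9997 over the alternatives) in IR. Slc22a4, the ergothioneine carrier, was at 1.66, 10.5 and 5.06 FPKM in IR+LYC, 10.5, 4.07 and 12.2 FPKM in IR and 17.7, 12.6 and 14.6 FPKM in control. Every irradiated library was below every control, with a log2 difference of -1.47 ± 0.54 (SE, limma adjusted p = 0.331, with 0.0295 to 0.697 over the alternatives) in IR+LYC. Slc22a5, the carnitine carrier, was at 11.05, 41.9 and 18.8 FPKM in IR+LYC, 28.9, 15.9 and 29.8 FPKM in IR and 37.8, 31.1 and 41.3 FPKM in control, with IR below control. Slc22a18, the highest of the class of 13, was at 13.2, 48.1 and 21.6 FPKM in IR+LYC, 34.4, 23.1 and 35.2 FPKM in IR and 38.6, 31.8 and 36.1 FPKM in control, with overlap. All 4 fell in IR+LYC without IR+LYC 2 (adjusted p = 0.0348, 0.0295, 0.0312 and 0.029999), among 6 of the class, where 15.5% of all genes tested fell. Slc10a4 and Slc22a17, at low levels, were at 3.29, 0.499 and 2.72 FPKM in IR+LYC, 1.33, 1.71 and 0.751 FPKM in IR and 1.13, 1.2996 and 1.56 FPKM in control and at 2.6001, 0.727 and 1.75 FPKM in IR+LYC, 0.901, 1.19 and 0.966 FPKM in IR and 0.717, 1.12 and 0.903 FPKM in control. They were highest in IR+LYC 1 and IR+LYC 3. They were the 2 of the class that rose without IR+LYC 2 (adjusted p = 0.0295 and 0.0251), where 11.2% of all genes rose.

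Slc6a8, the creatine carrier, was at 18.7, 272 and 43.2 FPKM in IR+LYC, 144, 39.6 and 162 FPKM in IR and 225, 224 and 228 FPKM in control. Its controls were nearly level, IR was below them in every library, and IR+LYC ran from far below to above them. Slc6a6, the taurine carrier, was at 19.3, 53.7 and 25.8 FPKM in IR+LYC, 42.1, 29.4 and 43.3 FPKM in IR and 58.2, 41.5 and 46.8 FPKM in control, with overlap. Both fell without IR+LYC 2 (adjusted p = 0.0248 and 0.0251). Slc14a1, a urea channel of endothelium and red cells, was at 1.66, 0.575 and 0.899 FPKM in IR+LYC, 0.853, 0.934 and 1.15 FPKM in IR and 1.69, 2.06 and 1.92 FPKM in control. All 6 irradiated libraries were below every control, IR+LYC 1 by little, with a log2 difference of -0.55 ± 0.18 (SE, limma adjusted p = 0.486, with 0.0812 to 0.994 over the alternatives) in IR. In the class of 2 peptide carriers that remained, Slc15a4, a carrier of lysosomes in immune cells, was at 3.38, 2.002 and 2.74 FPKM in IR+LYC, 2.85, 3.45 and 2.74 FPKM in IR and 2.31, 3.295 and 2.75 FPKM in control, with overlap in all 3 groups.

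Mitochondrial carriers made up the largest class, 36 genes with a median range of 2.01-fold. In IR against control 6 were lower and 2 higher without overlap, where 14% and 14.1% of all genes tested were. Slc25a5, the ADP/ATP exchanger of dividing cells and the highest Slc gene of the 225, was at 416, 1492 and 578 FPKM in IR+LYC, 1019.7, 545 and 1182 FPKM in IR and 1509.6, 1206 and 1451 FPKM in control, with IR below control in every library. Slc25a4, the form of muscle, was at 61.1, 19.2 and 43.5 FPKM in IR+LYC, 40.8, 41.8 and 34.1 FPKM in IR and 23.6, 34.5 and 34.4 FPKM in control, lowest in IR+LYC 2 and highest in IR+LYC 1, as the smooth muscle sum was. Slc25a20, the carnitine-acylcarnitine exchanger, was at 11.6, 19.96 and 16.8 FPKM in IR+LYC, 24.6, 19.4 and 26.5 FPKM in IR and 22.1, 15.4 and 20.1 FPKM in control, with overlap. Slc25a37, the iron importer mitoferrin 1, was at 7.27, 18.97 and 12.4 FPKM in IR+LYC, 16.2, 10.8 and 18.4 FPKM in IR and 28.3, 19.6 and 23.3 FPKM in control. Every irradiated library was below every control, with a log2 difference of -0.91 ± 0.33 (SE, limma adjusted p = 0.327, with 0.0287 to 0.695 over the alternatives) in IR+LYC. Without IR+LYC 2, 14 of the class fell and 1, Slc25a4, rose in IR+LYC against control, where 15.5% and 11.2% of all genes did. Slc25a37 (adjusted p = 0.0287), Slc25a5 (0.0277) and the glutamate carrier Slc25a22 (0.0158) fell. Slc25a22 was at 5.73, 27.99 and 8.89 FPKM in IR+LYC, 17.1, 12.6 and 21.9 FPKM in IR and 28.3, 27.01 and 32.1 FPKM in control.

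Others of the class had patterns of their own. Slc25a13, an aspartate/glutamate exchanger, was at 4.48, 9.04 and 5.18 FPKM in IR+LYC, 5.73, 6.36 and 6.76 FPKM in IR and 8.81, 7.37 and 7.698 FPKM in control, and Slc25a24, an ATP-magnesium/phosphate carrier, at 29.8, 56.3 and 33.2 FPKM in IR+LYC, 62.95, 47.9 and 67.8 FPKM in IR and 61.96, 56.8 and 60.9 FPKM in control; both fell without IR+LYC 2 (adjusted p = 0.0222 and 0.0214). Slc25a42, which brings coenzyme A into mitochondria, was at 1.63, 2.15 and 1.797 FPKM in IR+LYC, 1.38, 1.45 and 1.67 FPKM in IR and 2.65, 2.09 and 2.22 FPKM in control. IR was below control in all libraries, with a log2 difference of -0.41 ± 0.11 (SE, limma adjusted p = 0.373, with 0.127 to 0.867 over the alternatives). Slc25a48 was at 0.587, 0.0973 and 0.417 FPKM in IR+LYC, 4.28, 1.57 and 3.06 FPKM in IR and 0.286, 1.504 and 1.89 FPKM in control, with every IR+LYC library below every IR library. Its log2 difference was -1.49 ± 0.35 (SE, limma adjusted p = 0.994, with 0.181 to 1 over the alternatives) in IR+LYC against IR. Its lowest level rests on few reads (5 in IR+LYC 2, against 284 in IR 1).

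The class of Golgi and endoplasmic reticulum carriers was formed by gene family, and the place in the cell of single genes was not checked. Its 23 genes had a median range of 2.37-fold, the same as all 225 Slc genes and above the 1.95 of all genes tested. IR+LYC 1 was the lowest library for 13 of them. The range was under 2-fold in 10 of them and 10-fold or more in 0. In IR against control 4 were lower and 2 higher without overlap, close to the shares of all genes given above. Slc35a1, the CMP-sialic acid carrier, was at 13.7, 9.53 and 14.1 FPKM in IR+LYC, 12.3, 14.2 and 9.896 FPKM in IR and 8.602, 10.9 and 11.6 FPKM in control, with overlap in all groups. Slc35g1, the highest of the class, was at 27.2, 125 and 38.99 FPKM in IR+LYC, 79.4, 37.3 and 70.5 FPKM in IR and 107, 76.6 and 84.7 FPKM in control. Slc35f2 was at 8.23, 37.5 and 16.8 FPKM in IR+LYC, 28.1, 11.6 and 24.5 FPKM in IR and 40.6, 36.2 and 36.7 FPKM in control. IR was below control, with a log2 difference of -0.88 ± 0.50 (SE, limma adjusted p = 0.637, with 0.243 to 0.9997 over the alternatives), though IR+LYC 2 lay among the controls. Slc35g2 was at 3.05, 1.69 and 2.84 FPKM in IR+LYC, 2.21, 1.73 and 1.99 FPKM in IR and 1.97, 1.76 and 1.52 FPKM in control. Without IR+LYC 2, 9 of the class fell, Slc35g1 and Slc35f2 among them (adjusted p = 0.0292 and 0.03097), and 2 rose, Slc35g2 among them (adjusted p = 0.0251). Of all genes tested, 15.5% fell and 11.2% rose there.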

How the data were processed

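The 9 libraries, 3 per group, were made from mouse intestine RNA. The submitters' processing notes name fastp for trimming and HISAT2 2.0.5 for alignment. The fastp version, genome build, counting tool and use of strand are not given in the sources used here. The authors deposited 1 table of FPKM for 54532 genes, and its gene positions matched GENCODE M21 (GRCm38) for 213 of the 225 Slc genes. A whole number of reads was recovered from 202261 of 202261 values above 0, to within 0.01 read, so depth is known; FPKM of a gene with few reads moves in steps of 1 read.

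Genes with at least 0.5 FPKM in 3 libraries, 15391 in all, were tested with limma 3.58.1 (R 4.3.3) as moderated contrasts, two-sided, with a mean-variance trend on log2(FPKM + 1), in 1 model of the 3 groups. A log2 difference on this scale understates the change of low genes. The Benjamini-Hochberg method adjusted p-values over all genes tested (threshold 0.05). The 3 comparisons share libraries, so their values are given side by side. The 16 substrate classes follow gene families, and no test was run on a class. Slc7a6os and Slc4a1ap were moved to the genes that are no carriers after their values were seen. The Slc genes, classes, marker lists, motifs and alternatives were chosen with earlier results of these data known. Genes were named by a rule: 46 fixed genes, the highest of each class, per class and comparison the smallest p without overlap, those at the edge of the level rule, up to 8 per direction past the threshold without IR+LYC 2, and the genes that are no carriers. Exceptions are said to be such, and some genes the rule names are not reported here. The procedure was tested on simulated data. Alternatives changed the pseudocount to 0.1, the filter, the scaling, the libraries fitted, the trend and the block, or applied limma-voom to the recovered reads of 16806 genes (at least 10 reads in 3 libraries).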

Additional observations from a re-analysis of the deposited data

How the results depend on the processing

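The counts of Slc genes past the threshold stayed at 0 under every alternative other than 2 settings. There were 2 genes in the fit of IR and control alone, and 2 (IR against control) and 99 (IR+LYC against control) without IR+LYC 2. Over the fits that left out 1 library these 2 counts thus ran from 0 to 2 and from 0 to 99. Over all genes, the 3 passing in IR against control became 1 with a pseudocount of 0.1, 7 with no filter, 1 with a mean of at least 5 FPKM, 100 in the fit of the 2 groups, 0 with limma-voom, and 0 to 98 when a library was left out. The 3 in IR+LYC against control became 0, 6, 1, 1 and 0 under the same settings, and 0 to 4120 when a library was left out. The median log2 difference of the Slc genes in IR against control was 0.0454 with limma-voom, against -0.14 on the deposited scale, while the median of all genes moved by 0.20; relative to all genes it was -0.14. In IR+LYC against control the median of all genes moved by 0.24. The cause of the other changes was not tested. Of the log2 differences printed for single genes, 555 recomputed values kept their direction and side of the threshold, 13 passed it, and 0 changed direction.

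With the replicate number as a block, 0 genes passed in each of the 3 comparisons, Slc genes included. Deviations of libraries with the same number correlated from -0.652 (IR 2 with IR+LYC 2) to 0.375 (control 2 with IR 2), without a common direction. Deviations of 3 libraries from their mean sum to 0, so this cannot exclude that the numbers pair the samples. Each group had 3 libraries, and the model of 3 groups shares 1 estimate of spread. Spread between IR+LYC libraries thus enters the test of every comparison in that model. By depth and library scaling together, 1 read on a gene of 1 kb is worth 0.0354 FPKM (IR+LYC 1) to 0.0656 FPKM (IR+LYC 2).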
